A study of Mus musculus with 4 samples.

Results

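The genes examined were 7 transcription factor genes that establish and maintain intestinal identity: Cdx1, Cdx2, Hnf4a, Hnf4g, Klf4, Klf5 and Gata4. They were picked out of the files by symbol, and all 7 were found among the 55203 genes of the files, with 20 of the 141738 transcript rows. The level of a gene was the sum of its transcript rows in FPKM (fragments per kilobase of transcript, relative to all mapped fragments), a unit that divides by transcript length and so allows levels to be compared between genes. The samples were intestine of adult male wild-type C57BL/6NTac mice aged 8 to 12 weeks and kept free of specific pathogens. RNA was sequenced after ribosomal RNA depletion as pairs of 150-base reads. The label of 2 libraries gives processing with RVC, or ribonucleoside vanadyl complex, a ribonuclease inhibitor, at 4 mM, and that of the other two gives fresh frozen tissue. The strain, age range, housing and wild-type genotype were given alike for both groups. The protocol accompanying all 4 libraries describes an RVC rinse, so how the fresh-frozen tissue was handled is known from its label alone. The labels do not say whether the libraries of a group came from separate mice, and p-values therefore measure the spread between these libraries, which may be technical. Each library carried a batch number of its own, so group and batch cannot be told apart, and there was no batch within which to compare.

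CDX proteins are caudal-type homeodomain factors that commit endoderm to an intestinal fate and act on brush border and mucosal genes. HNF4 proteins are nuclear receptors that bind DNA as dimers and drive enterocyte genes for absorption, lipid handling and cell junctions. The Hnf4a gene is read from a pair of promoters: P1 gives proteins with an amino-terminal activation domain and is the main promoter of adult liver and kidney, whereas P2 gives proteins that lack this domain and is used in pancreas and stomach. The gut uses both promoters, with P2 products described in crypts and P1 products in differentiated cells. Klf4 and Klf5 encode zinc finger factors with opposite roles, Klf4 favouring cell cycle exit and goblet cell maturation and Klf5 the proliferation of crypt cells. Gata4 encodes a zinc finger factor of the proximal small intestine that is known to be silent in distal ileum and colon.

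The sequences that separate the Hnf4a products are printed first, since the promoter results below rest on the first exons. The windows are the 200 bases before the annotated 5′ end of each promoter on the plus strand of GRCm39 chromosome 2 (GENCODE vM39), chr2:163348528-163348727 for P2 and chr2:163388869-163389068 for P1. Capitals mark matches to CCNCNCCC, a pattern of the binding site of Krüppel-like factors, on either strand.
Hnf4a P2 promoter: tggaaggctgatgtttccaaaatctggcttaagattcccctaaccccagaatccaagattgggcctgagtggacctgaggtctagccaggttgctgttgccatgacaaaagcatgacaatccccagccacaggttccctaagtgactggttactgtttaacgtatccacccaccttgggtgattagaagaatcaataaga
Hnf4a P1 promoter: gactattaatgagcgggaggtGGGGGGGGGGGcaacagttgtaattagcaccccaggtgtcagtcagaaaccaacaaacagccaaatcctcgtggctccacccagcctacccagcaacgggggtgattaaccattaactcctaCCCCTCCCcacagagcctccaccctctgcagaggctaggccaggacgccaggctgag
The pattern had 5 matches at P1 and 0 at P2. Of those at P1, 4 were overlapping matches on the minus strand within 1 unbroken run of G. The remaining match lay apart from that run, so the count is not one of separate sites. Both strands were searched for each pattern, and 42.57% of the 32851 promoter windows of the same length in the RefSeq table held this one. The table gave windows for 3 of the 7 genes, Hnf4a, Klf4 and Cdx2. The Hnf4a windows printed above were set at the vM39 starts instead, 49 bases before the RefSeq start for P2 and 6 for P1. Those of Klf4 and Cdx2, like the background windows, were set at the RefSeq start. The Cdx2 window thereby reaches past the vM39 start into the transcript. The pattern had 5 matches in the Klf4 window and 2 in the Cdx2 window. A CDX pattern, TTTATNG, an HNF4 pattern, CAAAGTNCA, and a GATA pattern, AGATAA, had 0 matches in all 4 of these windows. They were held by 7.726%, 0.9589% and 7.796% of RefSeq windows. The P2 window held 47.5% G and C with 1 CG dinucleotide and the P1 window 58.5% with 4, beside medians of 53.0% and 5 over the RefSeq windows.

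The first coding exons follow from the first annotated start codon, with start codons in capitals. They show where the P1 and P2 proteins part and how the 2 starts of Hnf4g differ.
Hnf4a P2 first coding exon (chr2:163348859-163348907): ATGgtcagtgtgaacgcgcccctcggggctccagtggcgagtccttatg
Hnf4a P1 first coding exon (chr2:163389225-163389339): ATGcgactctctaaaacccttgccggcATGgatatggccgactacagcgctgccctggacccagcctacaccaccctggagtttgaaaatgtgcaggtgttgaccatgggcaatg
Hnf4g downstream first coding exon (chr3:3699272-3699407): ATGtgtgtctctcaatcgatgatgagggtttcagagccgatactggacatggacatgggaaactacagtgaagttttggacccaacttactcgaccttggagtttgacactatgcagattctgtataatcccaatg
The coding stretch of the first exon measured 49 bases for P2 and 115 bases for P1, and each ended 1 base past whole codons, so both join the shared second exon in the same frame. The P1 exon holds 2 annotated start codons 27 bases apart. The downstream start of Hnf4g contributes 136 coding bases, also ending 1 base past whole codons, whereas its upstream start contributes 4 (chr3:3573389-3573392).

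The labelled tissue was ileum, while the protocol named distal colon. Of 11 colon markers, all 11 reached 1 FPKM in every library. The highest by mean were Car4 (1265 to 2373 FPKM), Car1 (1576 to 1781) and Slc26a3 (846 to 1249), and the lowest single value was 1.12, for Ang4. Of 12 markers of ileum and more proximal small intestine 4 reached 1 FPKM in every library and 8 stayed below it in every library. Of this small-intestine list, Fgf15, Apoa4 and Defa17 were listed at 0 in all 4 libraries, while the 4 that reached 1 FPKM were Rbp2 (61.4 to 92.7 FPKM), Fabp2 (14.5 to 43.7), Fabp6 (2.70 to 3.96) and Slc10a2 (2.33 to 3.07). Relative depth, read from the ratio of coverage to FPKM, ran from 72.6% to 100% of the deepest library, fresh frozen 2. The number of fragments is unknown. Epithelial markers were abundant, and all 9 exceeded 1 FPKM in every library. The tissue was whole intestine, so fewer cells of a type and less RNA per cell cannot be told apart in any level given here.

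The Krüppel-like factor genes were among the most abundant of the 7. Klf4 (ENSMUSG00000003032, chromosome 4, 55527143 to 55532466, GRCm39) measured 239.95 and 201 FPKM in RVC 1 and RVC 2 and 217 and 205 FPKM in fresh frozen 1 and 2. Its mean was 216 ± 17.3 FPKM (SD, n = 4), the RVC values enclosed the fresh-frozen values, and 287 of the 13771 genes tested stood above it. Klf5 (ENSMUSG00000005148, chromosome 14, 99536127 to 99552472) measured 131, 137, 158 and 133 FPKM in the same order, with a mean of 139.8 ± 12.5 (SD, n = 4). Fresh frozen 1 was its highest library and the other three lay close together. The ratio of Klf4 to Klf5 in FPKM was 1.83, 1.47, 1.37 and 1.55, so that Klf4 led in every library.

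The HNF4 genes, which encode receptors with nearly the same DNA-binding domain, stood far apart in level. Hnf4a (ENSMUSG00000017950, chromosome 2, 163348728 to 163414830) measured 189 and 179 FPKM in RVC and 175 and 150.4 FPKM in fresh frozen, a mean of 173 ± 16.3 (SD, n = 4). Its groups did not overlap, as in 53.2% of the 13771 genes tested. The P1 models alone, described below, did overlap, at 158 and 144 FPKM in RVC and 150 and 126 FPKM in fresh frozen. Hnf4g (ENSMUSG00000017688, chromosome 3, 3573090 to 3723112) measured 7.56 and 10.1 FPKM in RVC and 12.6 and 9.05 FPKM in fresh frozen, a mean of 9.82 ± 2.11 (SD, n = 4). Its groups overlapped. Per length, Hnf4a exceeded Hnf4g by 24.97, 17.7, 13.9 and 16.6 times in the 4 libraries, a mean ratio of 18.3 ± 4.71 (SD, n = 4).

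The caudal-type pair also differed in level, with Cdx1 above Cdx2. Cdx1 (ENSMUSG00000024619, chromosome 18, 61151934 to 61169271) measured 58.1 and 61.3 FPKM in RVC and 59.0 and 61.4 FPKM in fresh frozen, a mean of 59.98 ± 1.66 (SD, n = 4). It was the steadiest of the 6 genes tested below. Its coefficient of variation, taken on FPKM scaled between libraries as in the tests below, was 3.20%, and 1.7% of all genes tested varied less. Cdx2 (ENSMUSG00000029646, chromosome 5, 147237615 to 147244080) measured 8.93 and 7.21 FPKM in RVC and 6.58 and 11.6 FPKM in fresh frozen, a mean of 8.57 ± 2.23 (SD, n = 4). The fresh-frozen libraries held both its lowest and its highest value. Its coefficient of variation of 26.9%, also after scaling, was the highest of the 6 genes tested, beside a median of 13.8% over all genes. The ratio of Cdx1 to Cdx2 in FPKM was 6.51, 8.51, 8.96 and 5.31, a mean of 7.32 ± 1.72 (SD, n = 4).

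Gata4 (ENSMUSG00000021944, chromosome 14, 63436371 to 63509141) was near 0, at 0.0808 and 0.139 FPKM in RVC and 0.0540 and 0.105 FPKM in fresh frozen. None of its 6 transcripts reached 1 FPKM in any library, and the highest upper confidence bound listed for any of them was 0.355 FPKM. Its relative Gata6, a factor active along the whole intestine, measured 9.45 and 10.8 FPKM in RVC and 9.74 and 9.70 FPKM in fresh frozen. Gata5, the remaining GATA factor of endoderm, averaged 0.392 ± 0.142 FPKM (SD, n = 4). Of the GATA genes examined, Gata6 alone reached 1 FPKM.

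**Figure D1:**
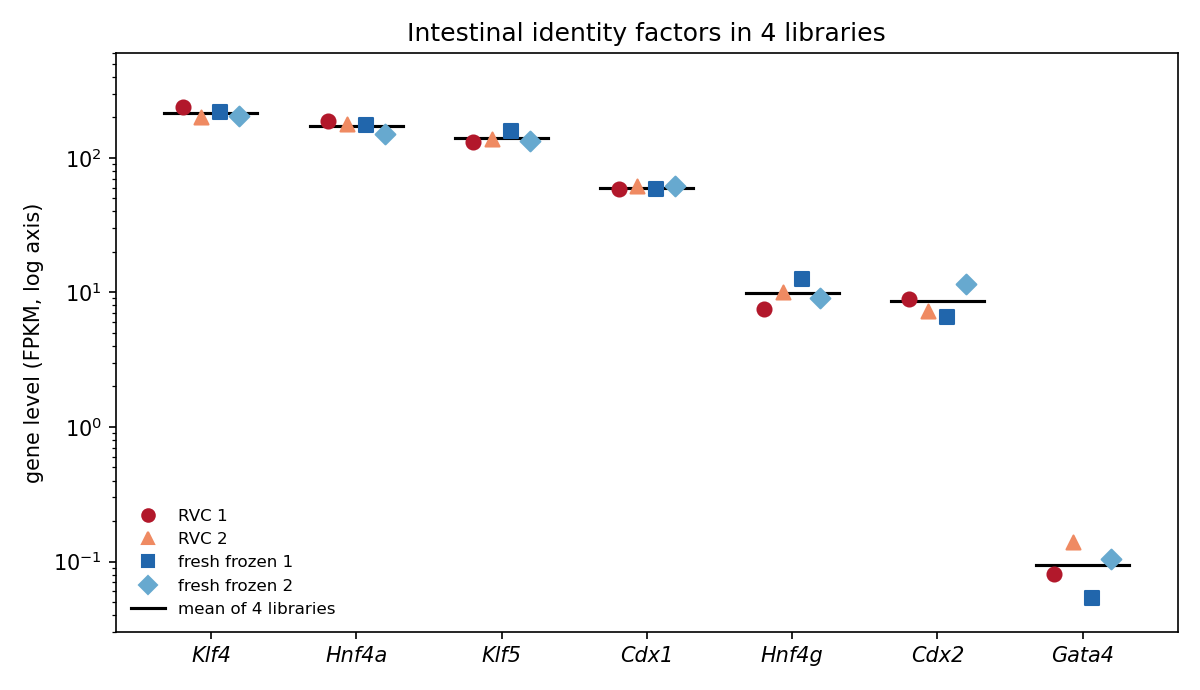
Gene level of the 7 intestinal identity factors in FPKM on a log axis, 1 point per library and a bar for the mean of 4 libraries. Klf4, Hnf4a and Klf5 lie between 131 and 239.95 FPKM, Cdx1 near 59.98, Hnf4g and Cdx2 between 6.58 and 12.6, and Gata4 at 0.139 or below.

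In descending order of mean FPKM the genes ran Klf4, Hnf4a, Klf5, Cdx1, Hnf4g, Cdx2 and Gata4, as the plot of gene levels by library shows. The ranges over the 4 libraries did not overlap for 4 of the 6 neighbouring pairs. Hnf4a and Klf5 overlapped in range, although the Hnf4a sum was higher within each of the 4 libraries. That sum includes the short P2 model. The P1 models alone stood above Klf5 in both RVC libraries and below it in both fresh-frozen libraries. Hnf4g and Cdx2 overlapped and exchanged places, with Hnf4g higher in 2 of 4 libraries, so their order was not resolved. With each gene represented by its most abundant transcript, Klf5 at 131 FPKM stood beside Hnf4a at 130.3, and Cdx2 at 8.57 FPKM above Hnf4g at 6.34, with both pairs still overlapping.

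Transcript models of Hnf4a were then assigned to promoters by their 5′ ends. The P2 start lies 40341 bases upstream of the P1 start. P2 was represented by 1 model, ENSMUST00000143911 (chromosome 2, 163348728 to 163394555), with a first exon of 180 nt and 2 further exons that it shares with the P1 models. It measured 29.4 and 33.9 FPKM in RVC and 24.9 and 23.2 FPKM in fresh frozen, a mean of 27.8 ± 4.82 (SD, n = 4). Both RVC values were above both fresh-frozen values. The confidence bounds in the files ran from 24.8 to 34.0 FPKM in RVC 1 and from 28.96 to 38.9 FPKM in RVC 2. They ran from 20.5 to 29.3 FPKM in fresh frozen 1 and from 19.6 to 26.8 FPKM in fresh frozen 2. The bounds of RVC 1 overlapped those of both fresh-frozen libraries. Those of RVC 2 overlapped fresh frozen 1 but not fresh frozen 2.

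P1 carried most of the Hnf4a signal. Its full-length models ENSMUST00000018094 and ENSMUST00000109411 summed to 157 and 143 FPKM in RVC and to 149 and 125 FPKM in fresh frozen, a mean of 144 ± 13.5 (SD, n = 4). These models hardly differ: in the files by 1 base at the 5′ end and 5 bases at the 3′ end, while in vM39 all 10 of their 10 exons are identical and they part only in which of the start codons printed above is annotated. Their split is therefore given without a reading of usage. ENSMUST00000109411 took 12.2%, 9.18%, 0.0878% and 16.7% of their sum in RVC 1, RVC 2, fresh frozen 1 and fresh frozen 2. A further P1 model without a coding region, ENSMUST00000131658, measured between 0.825 and 1.07 FPKM. The last model, ENSMUST00000137449, starts 2934 bases downstream of P1, belongs to neither promoter and measured between 0.768 and 0.891 FPKM.

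**Figure D2:**
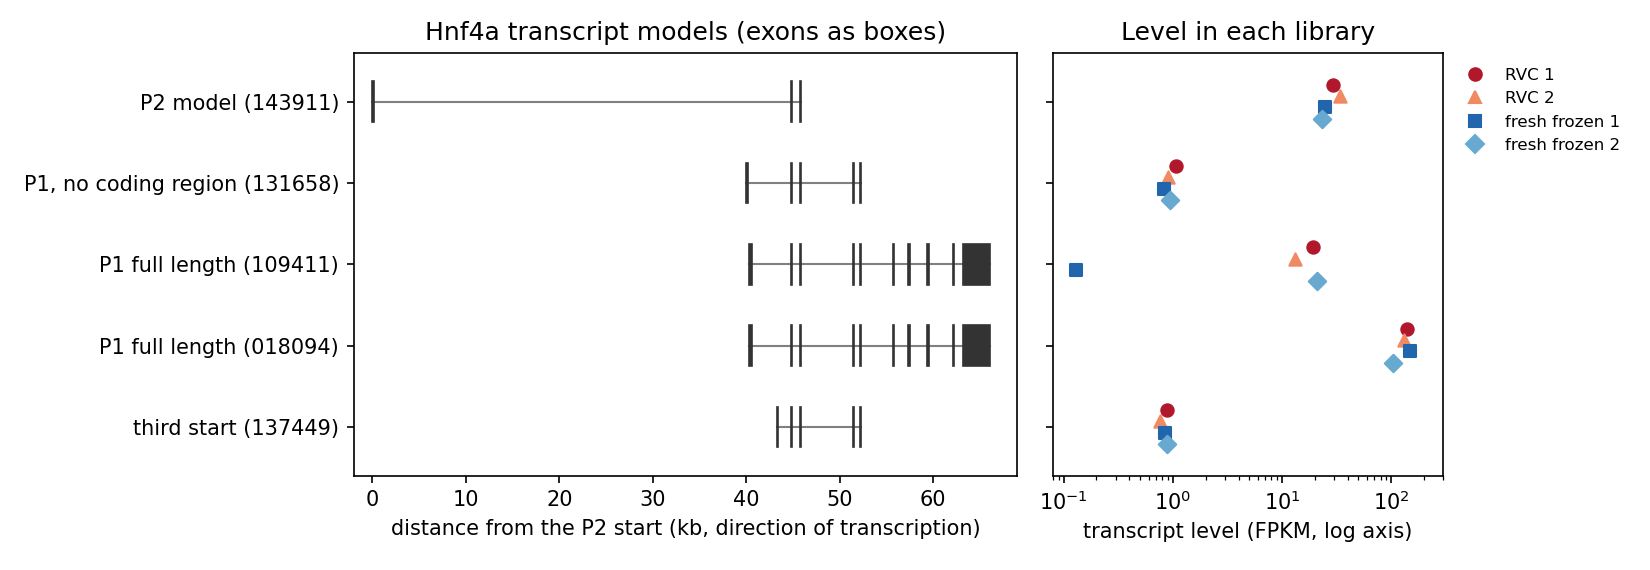
Left, exons of the 5 Hnf4a models as boxes, by distance in kilobases from the P2 start in the direction of transcription; right, the level of each model in FPKM on a log axis, 1 point per library. The P2 model ends after its 3 exons at 23.2 to 33.9 FPKM, and the full-length P1 model ENSMUST00000018094 lies highest, at 105 to 149 FPKM.

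Of the FPKM assigned to P1 and P2 together, P2 took 15.6% and 19.1% in RVC and 14.3% and 15.5% in fresh frozen, a mean of 16.1% ± 2.05 (SD, n = 4). The group means were 17.4% ± 2.41 and 14.9% ± 0.862 (SD, n = 2 each), and the groups did not overlap. Over the 5381 genes with a leading transcript to compare, the groups did not overlap in its share for 46.4%. The median absolute difference over those genes was 4.33 points. The Hnf4a difference of 2.47 percentage points had an exact permutation p of 0.333 (two-sided), the smallest that 2 against 2 libraries can give. It was 0.764 points without RVC 2 and 4.17 points without RVC 1. The P2 model is incomplete at its 3′ end and 431 nt long, against 4356 nt for ENSMUST00000018094, and of its bases 251 lie in exons shared with P1. Reads from the later exons of a P2 messenger RNA could be assigned to P1 models only, as 1 of the 7 Hnf4a transcripts in vM39 starts at P2. If the P1 models already held those reads, P2 over P1 alone is the share, at 19.3% ± 2.97 (SD, n = 4), and without division by length P2 took 1.88% ± 0.284 of the signal.

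Hnf4g was also read from more than 1 start. The upstream model ENSMUST00000108393 measured 5.91 and 6.79 FPKM in RVC and 7.36 and 5.30 FPKM in fresh frozen. The downstream model ENSMUST00000108394, which starts 126121 bases farther on and carries the first coding exon printed above, measured 1.65 and 3.29 FPKM in RVC and 5.23 and 3.75 FPKM in fresh frozen. The upstream start led in every library, and the downstream start was lower in both RVC libraries than in either fresh-frozen library. The upstream share of Hnf4g FPKM was 78.2% and 67.3% in RVC and 58.5% and 58.6% in fresh frozen, a mean of 65.6% ± 9.33 (SD, n = 4). The groups differed by 14.2 percentage points with an exact permutation p of 0.333, again the smallest possible, and by 8.82 points without RVC 1. Across the 5381 genes with a leading transcript to compare, the groups did not overlap in this share for 46.4%, the median absolute difference was 4.33 points, and 9.91% of genes differed by as much as Hnf4g or more. The models in the files end earlier than in vM39, at 2224 and 2327 nt against 4186 and 4080 nt.

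Klf4, Klf5, Cdx1 and Cdx2 drew nearly all of their FPKM from 1 model, while Gata4 was too low for its shares to be read. Klf5 had a second model, ENSMUST00000226784, whose last exon runs on past a splice site of the main model and ends the transcript early. It measured 8.16 and 9.33 FPKM in RVC and 9.36 and 7.03 FPKM in fresh frozen, or 6.22%, 6.80%, 5.92% and 5.29% of Klf5 in the 4 libraries. The main Klf4 model, ENSMUST00000107619, took between 99.1% and 99.7% of Klf4, and the other model to reach 1 FPKM, ENSMUST00000132746, measured 0.481 to 1.57 FPKM. The third Klf4 model stayed at 0.656 FPKM or below. Cdx1 and Cdx2 had 1 model each in the files, so their promoter use could not be examined, and vM39 lists 4 models for Cdx1.

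**Figure D3:**
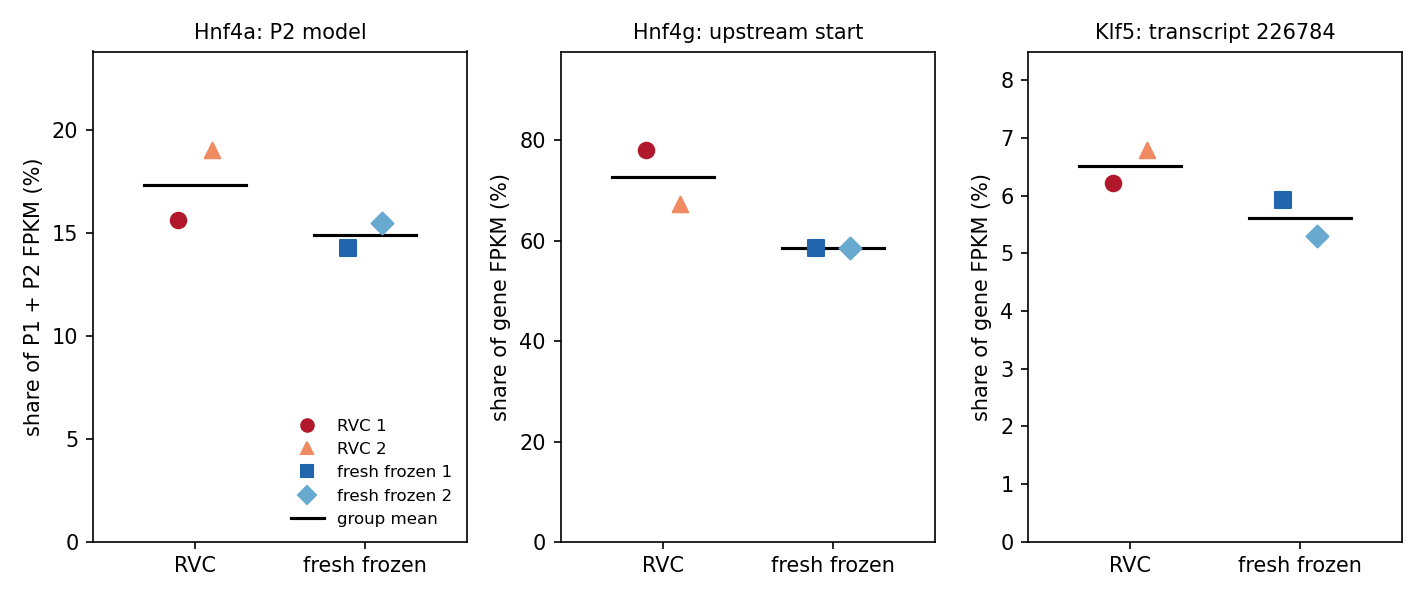
Share of FPKM in percent for the P2 model of Hnf4a, the upstream start of Hnf4g and the shorter model of Klf5, 1 point per library and a line for each group mean. RVC lies above fresh frozen in all 3 panels, at 17.4% against 14.9%, 72.7% against 58.5% and 6.51% against 5.61%, with 2 libraries per group. The direction depends on which model of a gene is plotted. Over 5381 genes, the groups did not overlap in the share of the leading transcript for 46.4%.

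Reads of overlapping genes can enter these values, since a strand setting was not given in the sources used here. Hnf4aos, a noncoding gene antisense to Hnf4a, was listed at 0.194, 0, 0 and 0.147 FPKM in RVC 1, RVC 2, fresh frozen 1 and fresh frozen 2. Gm25881, a gene of 103 nt inside Hnf4a, was listed at 12.2 FPKM in fresh frozen 2 and at 0 in the other libraries. Gm37000, of 428 nt inside Hnf4g, measured 1.93 and 1.504 FPKM in RVC and 1.11 and 1.26 FPKM in fresh frozen, and its part in the Hnf4g values was not tested. ENSMUSG00002076386, also inside Hnf4g, was listed at 0 in all 4 libraries.

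RVC and fresh-frozen libraries were next compared with limma on log2(scaled FPKM + 1), where a pseudocount of 1 understates changes of low genes, with Benjamini-Hochberg adjustment over 13771 genes. Of the 6 genes with a mean of at least 1 FPKM, 0 passed the threshold of 0.05 on the limma adjusted p, and the unadjusted p was under 0.05 for 0 of them. Gata4 was too low to be tested. Over all genes 5 passed (0.0363%), 18.4% had an unadjusted p under 0.05 and the groups did not overlap for 53.2%, against 1 of the 6, Hnf4a. Of the 6, 2 had a positive and 4 a negative difference, with a median of -0.056 on the log2 scale beside 0.0066 over all genes tested. With 1 library left out, the count over all genes was 29 without RVC 1, 8 without RVC 2, 40 without fresh frozen 1 and 22 without fresh frozen 2, and none of the 6 genes was among them.

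Hnf4a had a log2 difference of 0.18 (SE 0.119, 95% interval -0.10 to 0.46, limma adjusted p 0.428). Hnf4g had a log2 difference of -0.26 (SE 0.183, 95% interval -0.69 to 0.17, limma adjusted p 0.464). That value was -0.057 without fresh frozen 1, -0.075 without RVC 1, -0.44 without RVC 2 and -0.47 without fresh frozen 2. The intervals of the other 4 genes all enclosed 0 as well. The narrowest belonged to Cdx1, from -0.25 to 0.24 around -0.0070 (limma adjusted p 0.978), and the widest to Cdx2, from -0.68 to 0.46 around -0.11 (limma adjusted p 0.832). Klf4 stood at 0.06 (-0.24 to 0.36, limma adjusted p 0.819) and Klf5 at -0.11 (-0.39 to 0.18, limma adjusted p 0.65). These intervals leave room for differences of either sign in all 6 genes. The sign turned for Cdx2 without RVC 2 (0.031) and without fresh frozen 2 (0.27), for Klf4 without RVC 1 (-0.068), for Klf5 without fresh frozen 1 (0.0014), and for Cdx1 without RVC 1 (0.027) and without fresh frozen 2 (0.033). With only the most abundant transcript counted, Hnf4g stood at 0.036 and Cdx1 at 0.011.

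Of the 20 transcripts of these genes, 10 were high enough to be tested, and 0 passed the limma adjustment over 24080 transcripts, where 1 transcript passed (0.00415%), and 0 passed with any 1 library left out. An unadjusted p under 0.05 was found for 1 of the 10, beside 15.6% of all transcripts. This was the P2 model of Hnf4a, with a log2 difference of 0.38 (SE 0.117, 95% interval 0.08 to 0.68, unadjusted p 0.0231, limma adjusted p 0.27). The interval enclosed 0 in a fit with no trend and without RVC 2, fresh frozen 1 or fresh frozen 2, where the log2 difference was 0.29, 0.40 and 0.35 and the unadjusted p 0.13, 0.059 and 0.085. The groups did not overlap for 3 of the 10, beside 50.4% of all transcripts: the P2 model, the downstream model of Hnf4g and the main model of Klf5, the last only after scaling, since its deposited FPKM overlapped. The downstream Hnf4g model had a log2 difference of -0.69 (SE 0.28, 95% interval -1.41 to 0.03, limma adjusted p 0.336), which was -0.34 without RVC 1 and -1.03 without RVC 2. The upstream Hnf4g model stood at 0.02 (-0.43 to 0.47, limma adjusted p 0.974).

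**Figure D4:**
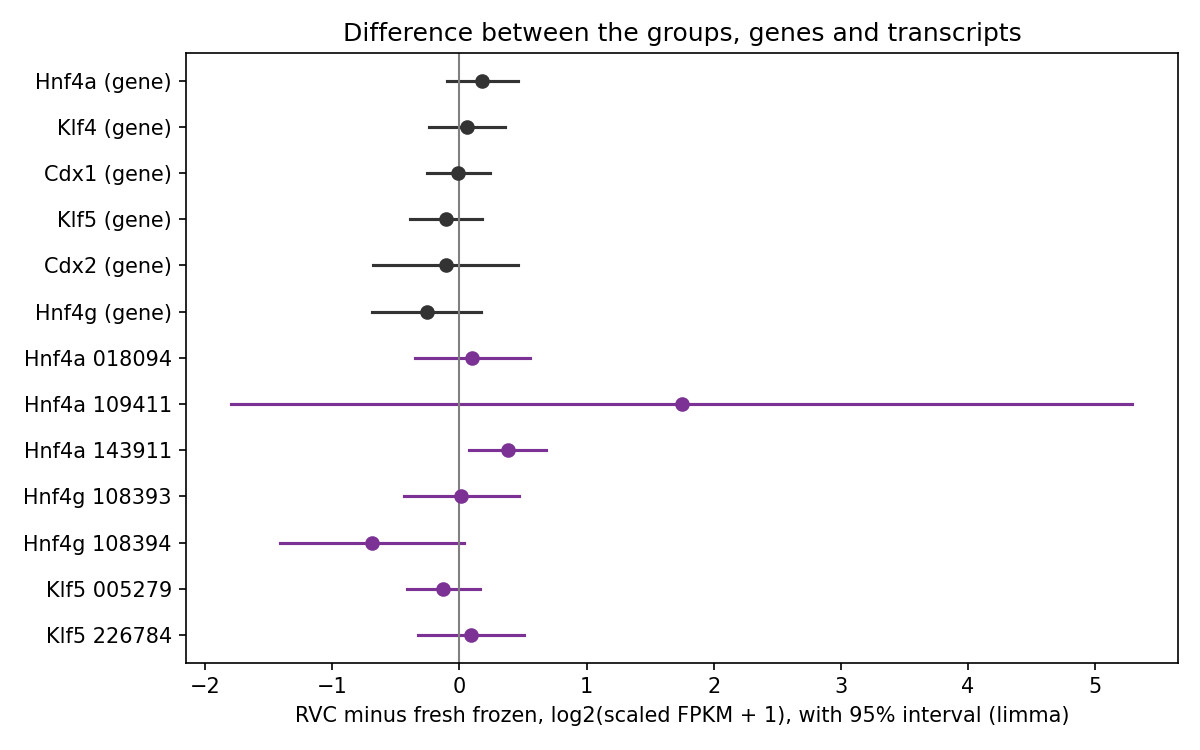
Difference between RVC and fresh frozen in log2(scaled FPKM + 1) for the 6 genes tested (black) and for the transcripts of genes with more than 1 model tested (purple), with limma's 95% intervals, positive where RVC is higher. The P2 model of Hnf4a at 0.38 is the one whose interval does not enclose 0, though it does without RVC 2, fresh frozen 1 or fresh frozen 2, and ENSMUST00000109411 of Hnf4a has the widest interval, from -1.79 to 5.29.

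Several marker lists moved with the groups. All 8 smooth muscle markers were higher in RVC, 8 of 8 with an unadjusted p under 0.05, none of them at 0, and their summed level was 1154 and 1705 FPKM in RVC against 719 and 770.5 FPKM in fresh frozen. All 8 endothelial markers were higher too, 6 of 8 with an unadjusted p under 0.05, at sums of 25.6 and 24.0 FPKM against 13.7 and 16.3 FPKM. Immediate early genes, which cells induce within a short time of a stimulus and among which Klf4 is often counted, were higher in 11 of 11, with sums of 299 and 268 FPKM against 235 and 228 FPKM. Absorptive colonocyte markers were higher in 7 of 7, with sums of 7884 and 6808 FPKM against 6393 and 5509 FPKM. Fibroblast markers were mixed, 4 higher and 2 lower, and their sums overlapped, as did those of enteric neuron and glia markers. Of 5 crypt stem and proliferation markers tested, 3 were lower in RVC, 2 of them with an unadjusted p under 0.05: Mki67, at a log2 difference of -0.62, and Top2a, at -0.56. Goblet markers were mixed, 5 higher and 2 lower, as were immune markers, 3 higher and 1 lower. In none of these lists did a gene pass the limma adjustment. Over all genes tested, 18.4% had an unadjusted p under 0.05 in limma and 7023 of 13771 were higher in RVC. The lists share genes: Klf2 stood in the endothelial and immediate early lists, and Krt20 in the colonocyte and epithelial lists. Of the 9 epithelial markers 8 were higher, 0 passed, and their sums overlapped, at 5292 and 5107 FPKM in RVC and 5612 and 4335 FPKM in fresh frozen. Set against the mean log2 difference of these markers, 0.069, Hnf4a stood at 0.11, Klf4 at -0.0070 and Hnf4g at -0.33. The part of these cell types and of the immediate early genes in the differences of the 7 genes was not tested.

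Other transcription factors of the intestinal epithelium were examined as a list of 28 genes. Of these, 22 reached 1 FPKM in every library and 4 were below 1 FPKM in every library, with Cdx4, the CDX gene of the early embryo, listed at 0 throughout. Of 23 tested, 0 passed the limma adjustment, 3 had an unadjusted p under 0.05 and all 3 of these were higher in RVC. The difference was positive for 13 and negative for 10, with a median of 0.05 on the log2 scale, and the groups did not overlap for 13 of 23. Over all genes tested, the unadjusted p was under 0.05 for 18.4% and the groups did not overlap for 53.2%, so both counts lay near the background.

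Factors that mark foregut organs and stratified epithelium were all below 1 FPKM in every library. The 7 genes of this list summed to 0.803 and 0.557 FPKM in RVC and 0.934 and 1.07 FPKM in fresh frozen. Its highest members were Sox21, at a mean of 0.330 ± 0.120 FPKM, and Pdx1, the duodenal and pancreatic homeodomain factor, at 0.258 ± 0.122 FPKM (SD, n = 4 each). The lung and thyroid factor Nkx2-1 averaged 0.160 FPKM, the foregut factor Sox2 0.0759 FPKM, Pax9 0.0146 FPKM and the squamous factor Trp63 0.00162 FPKM, and Barx1, a stomach factor, was listed at 0. Of 6 markers of liver and pancreas, where Hnf4a is also active, 5 were below 1 FPKM in every library. Ttr was the exception, between 8.62 and 18.6 FPKM, while albumin (Alb) averaged 0.283 FPKM.

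**Figure D5:**
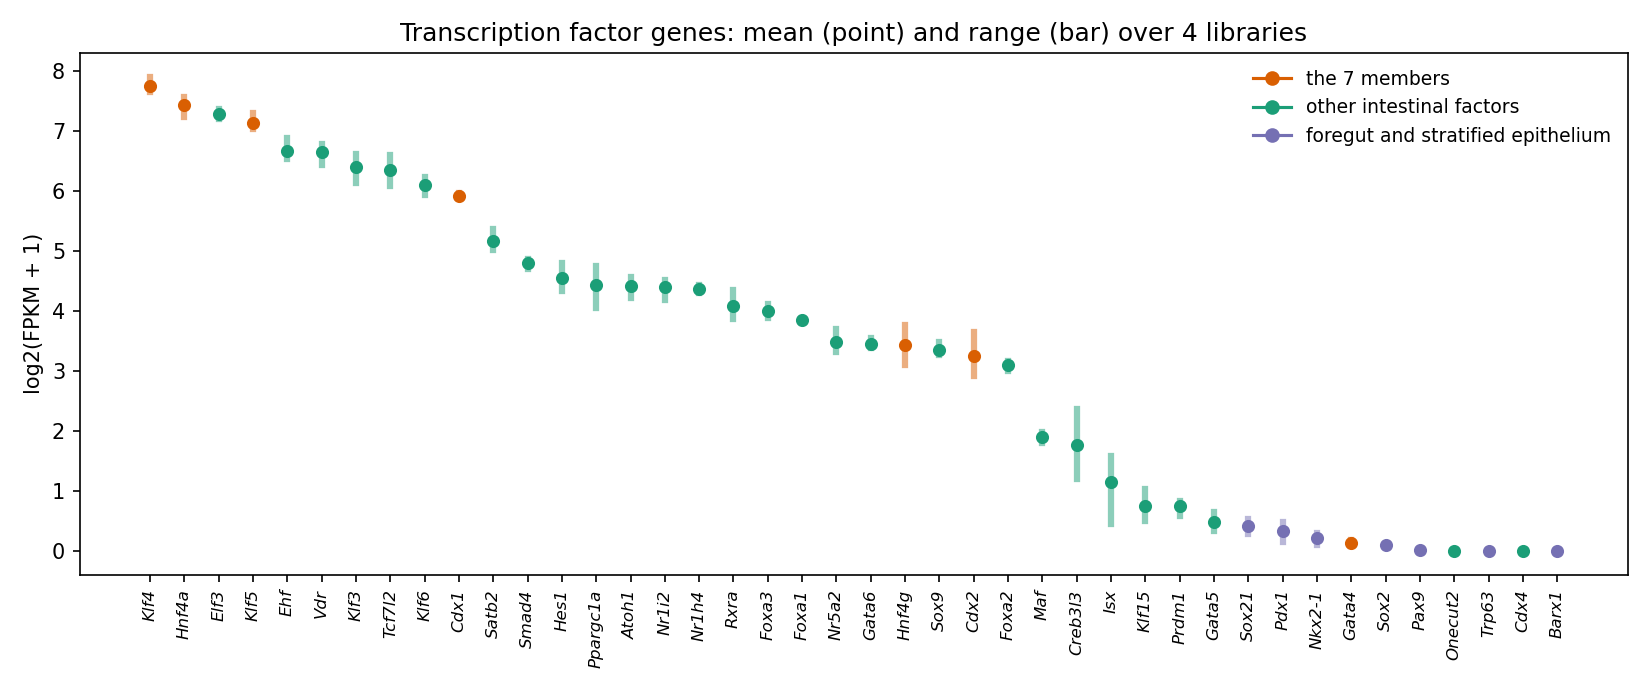
Level of the 7 genes (orange), 28 other intestinal factors (green) and 7 foregut or stratified epithelium factors (purple) as log2(FPKM + 1), with the mean as a point and the range over 4 libraries as a bar. Klf4, Hnf4a and Klf5 hold 3 of the 4 highest places, with Elf3 between them, and Gata4 lies among the purple points.

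For each of the 7 genes the nearest factor in the list of 28 was found by the root mean square distance of log2(scaled FPKM + 1) over the 4 libraries. Elf3, an epithelial ETS factor at 165 and 160.5 FPKM in RVC and 147 and 148 FPKM in fresh frozen, was nearest to Hnf4a (0.177), to Klf5 (0.221) and to Klf4 (0.482). Cdx1 was nearest to Klf6 (0.229), Cdx2 to Sox9 (0.276) and Hnf4g to Gata6 (0.231). Gata4 was nearest to Onecut2 (0.129), which like it was near 0. The distance is mostly one of level, and 4 libraries do not resolve patterns beyond that.

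Genes commonly described as bound or driven by CDX, HNF4 or GATA4 proteins formed the last list, of 33 genes. In every library 25 of them reached 1 FPKM and 7 were below it. The highest were Lgals4, a brush border lectin gene, at 1791 ± 248 FPKM, Car1, a colonic carbonic anhydrase gene, at 1655 ± 90.2 FPKM, and Slc26a3, the chloride and bicarbonate exchanger gene, at 1115 ± 182 FPKM (SD, n = 4 each). The lowest were genes of the small intestine: Apoa4 was listed at 0, the lactase gene Lct averaged 0.0156 FPKM and Apoa1 averaged 0.0538 FPKM. Of the 25 tested, 0 passed the limma adjustment, the unadjusted p was under 0.05 for 5, of which 4 were higher in RVC and 1 was lower, the median log2 difference was 0.15 and the groups did not overlap for 12. These counts too lay near the 18.4% and 53.2% of all genes tested.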

How the data were processed

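Per the labels' protocols, ribosomal RNA was depleted and libraries were sequenced on an Illumina NextSeq. Per the submitters' processing notes and the series design text, the authors used TopHat2 2.1.1 and Cufflinks 2.2.1 on GRCm39; annotation release and strand setting were not given in the sources used here. The deposited FPKM per transcript, with confidence bounds, divides reads among overlapping models by likelihood, so near-identical or truncated models share them. The deposited coverage signal gave relative depth; counts were not recoverable, since FPKM from a likelihood fit are not multiples of single reads.

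Transcripts were summed per gene, scaled by median ratio (factors 0.992 to 1.01) and compared as log2(scaled FPKM + 1) with limma 3.58.1 in R 4.3.3 (mean-variance trend, two-sided). Genes and transcripts needed a mean of at least 1 scaled FPKM, 300 nt and an OK status in every library. The fit was tested on simulated data with changes larger than the examined genes showed. Its power for smaller differences was not tested. Shares were compared by exact permutation. A 5′ end within 1000 bases of a promoter's annotated start was assigned to it. Exons and starts came from GENCODE vM39, promoter background from RefSeq windows of GRCm38.p6. Tables used pandas 2.3.3, figures matplotlib 3.10.9.

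The members, the lists and the rule for named genes (the 7 genes, their transcripts reaching 1 FPKM, all Hnf4a models, overlapping genes, GATA relatives, the foregut list, the extremes of the target list, nearest factors) were chosen with earlier results of these data known; Ttr, Alb, Cdx4 and Gata5 were named after their values were seen. Alternatives were another pseudocount, scaling, filter, replicate block, trend, transcript choice, and each library left out. Some planned items are not reported here. The main fit did not treat the libraries as paired by sample number.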

Additional observations from a re-analysis of the deposited data

How the results depend on the processing

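Over the refits of the 6 genes and of the P2 model of Hnf4a and the downstream model of Hnf4g, 0 of 123 gave a limma adjusted p under 0.05, and Hnf4a kept its direction in 17 of 17 (0.08 to 0.27). The other genes depended on the library or transcript used, and the cause was not tested. With libraries left out one by one, Cdx2 ran from -0.49 to 0.27, Klf4 from -0.068 to 0.19, Klf5 from -0.22 to 0.0014, Hnf4g from -0.47 to -0.057 and Cdx1 from -0.053 to 0.033. With the most abundant transcript Hnf4g stood at 0.036 and Cdx1 at 0.011, and relative to the epithelial markers, an alternative chosen after seeing the data, Klf4 stood at -0.0070.

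The count of all genes called by limma, 5 in the main comparison, was 0 with no filter on low values (3531 at an unadjusted p under 0.05), 0 with no trend (2461), 0 with short transcripts left out of the gene sum (2577), 2 at a mean of at least 5 FPKM and 2 with the most abundant transcript, and 8 to 40 with 1 library left out. A replicate block on sample number gave 112 genes and 1 transcript and changed no call among the 7 genes. Same-numbered libraries deviated with a correlation of -0.13 across 13771 genes. A correlation over so few libraries cannot decide whether the numbers pair them. The crossed pairing, added after seeing the data, gave 12 genes and 1 transcript. The count of transcripts, 1 in the main comparison, was 0 with no filter (9176 at an unadjusted p under 0.05), 6 at a mean of at least 5 FPKM, 7 with no length minimum and 0 without any 1 library (2134 to 2999 at an unadjusted p under 0.05).

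The P2 share of 16.1% was 19.3% over P1 alone, an alternative chosen after seeing the data, and 15.1% to 16.7% with 1 library left out. Its difference between the groups ran from 0.764 to 4.17 points. As coverage times length the share was 1.88%. That measure is not divided by length, so it is low for the short P2 model and is not another estimate of promoter use. A minimum transcript length of 1000 nt left no P2 model and gave no value. The bounds given for the P2 model overlapped between some libraries of different groups, which limits what the depth can resolve there.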
